A study of Mus musculus with 20 samples.

Results

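The 10 genes described here are transcripts by which the astrocytes and Bergmann glia of the cerebellum are known. Slc1a2, Slc1a3, Glul, Aldh1l1, Aqp4, Gja1 and Gjb6 serve transport, coupling and metabolism, Gfap marks reactive astrocytes, and Gdf10 and Hopx mark Bergmann glia. The genes were chosen by symbol, and all 10 were found among the 29200 Ensembl genes of the count table. All 10 were also among the 12153 genes that averaged 50 counts or more over the libraries, which were the genes tested.

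Astrocytes clear glutamate and potassium from the synaptic space, turn glutamate into glutamine, and pass ions and metabolites to one another through gap junctions. Bergmann glia are the radial astrocytes of the cerebellum, with cell bodies in the Purkinje cell layer and processes that ensheath the synapses on Purkinje cell dendrites. Reactive astrocytes build up intermediate filaments of glial fibrillary acidic protein, and in ataxias the glia around ailing Purkinje cells are a common place to look for this response.

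Poly(A) RNA was sequenced from the cerebella of 20 male C57BL6/N mice in 4 groups of 5. The 304Q/304Q mice carried, on both alleles of Atxn3, a knock-in of an interrupted repeat that codes for 304 glutamines, made with zinc-finger nucleases and kept as a line from 1 founder. The WT/WT mice were their littermates, with the unexpanded mouse Atxn3 on both alleles (the sample labels of these mice name ataxin-2, the series design and the methods ataxin-3). Each genotype was taken at 2 months, the age the study calls pre-symptomatic, and at 12 months, the age it calls symptomatic. The comparisons ask whether the knock-in alters cerebellar transcripts before and after onset, and how the transcripts move with age in each genotype.

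Library totals were 13022162, 13909618, 12695367, 13438291 and 15136892 counts in the WT/WT mice of 2 months and 27636687, 13246385, 13607574, 14234560 and 16606406 in the 304Q/304Q mice of 2 months. At 12 months they were 13162029, 14305694, 13267239, 14074506 and 12765814 for WT/WT and 13640479, 12820748, 11385380, 13226186 and 13897750 for 304Q/304Q mice. Replicate 1 of the 304Q/304Q mice of 2 months was thus the deepest library. The lowest count of any of the 10 genes in any library was 513, for Gjb6, and the highest was 48238, for Slc1a3. Within the groups, the median coefficient of variation of the normalized count lay between 3.49% for Slc1a3 and 12.6% for Aqp4. A normalized count here is a count scaled by the TMM method to the mean effective library of 14212125.

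Atxn3, the targeted gene, had normalized counts of 278 ± 42.1 for WT/WT and 191.5 ± 30.9 for 304Q/304Q mice of 2 months (SD, n = 5). At 12 months the values were 222 ± 16.0 and 203 ± 17.6 (SD, n = 5). A count per gene does not read the length of the repeat, so these levels do not check the genotype labels.

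Some libraries stood apart in what they held beside cerebellum. Markers of the choroid plexus, the epithelium that makes cerebrospinal fluid, summed to over 100 CPM (counts per 1000000 of the library, scaled by TMM) in 6 of the 20 libraries, with Ttr as the most abundant gene. In the 304Q/304Q mice of 2 months the sums were 29.9, 29.8, 1718, 30.5 and 12.7 CPM. In the WT/WT mice of 12 months they were 406, 2105, 23.3, 21.1 and 1002 CPM. In the 304Q/304Q mice of 12 months they were 1498, 18.9, 1400.1, 14.8 and 14.7 CPM, and in the WT/WT mice of 2 months they stayed between 12.5 and 18.7 CPM. So 1, 3, 2 and 0 libraries of these groups carried choroid plexus transcripts, and each comparison was also run without the 6 libraries, an alternative chosen after seeing the data.

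The tissue label held against its markers. Of 7 cerebellar markers all were tested, with Cbln1 the most abundant and sums of 3836 ± 129.5, 3653 ± 199, 3467 ± 49.6 and 3207 ± 218 CPM (WT/WT then 304Q/304Q at 2 months, then at 12 months, SD, n = 5). Markers of brainstem and midbrain summed to 24.2 ± 2.47, 25.4 ± 1.82, 33.9 ± 7.41 and 29.2 ± 3.37 CPM in the same order (SD, n = 5). Hoxb2, Hoxb3 and Hoxb4 had a median count of 0, Otx2 had the most CPM and Th the most per length. Libraries also differed in base composition. The log2 level of genes of 55% GC relative to genes of 42% GC had group medians of −0.15 and 0.01 at 2 months and 0.17 and −0.05 at 12 months, WT/WT before 304Q/304Q.

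The 10 genes lie on 9 chromosomes of the GRCm38 build. Slc1a2 is at chr2:102658659-102790784 on the plus strand, Slc1a3 at chr15:8634124-8710764 on the minus strand, and Glul at chr1:153899944-153909723 on the plus strand. Aldh1l1 is at chr6:90486427-90600203 on the plus strand and Aqp4 at chr18:15389496-15410982 on the minus strand. The connexin genes Gja1 and Gjb6 are at chr10:56377330-56402513 on the plus and chr14:57123303-57133611 on the minus strand. Gfap is at chr11:102887336-102900912 on the minus strand, Gdf10 at chr14:33923587-33937983 on the plus strand and Hopx at chr5:77086988-77115121 on the minus strand. All are annotated as protein-coding, and Gjb6 and Gdf10 share chromosome 14.

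Overlapping genes leave a part of some counts uncertain, since the kit keeps the strand but the sources used here do not state which strand was counted. Exons of Hopx share 412 bases with the antisense gene Hopxos (2 to 24 counts), those of Aldh1l1 share 499 bases with the antisense Gm15756 (at most 3 counts), and those of Slc1a2 share 189 with the antisense Gm13872 (at most 3 counts). Glul shares 116 exon bases with Teddm2 (1 to 24 counts). These partners had at most 24 counts in any library, against at least 611 for each of the 4 members. The exonic GC content ranged from 41.37% in Aqp4 and 42.2% in Gja1 to 54.42% in Aldh1l1 and 55.48% in Gfap.

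Per length, the genes kept a similar order in all groups. On the scale of CPM per kilobase of exon, Glul was the most abundant, at 345 ± 21.9 in the WT/WT mice of 2 months (SD, n = 5). Slc1a3 followed at 199 ± 6.72, and every mouse of every group had more Glul than Slc1a3 and more Slc1a3 than Aqp4. Aqp4 and Slc1a2 came next, at 73.9 ± 12.1 and 61.9 ± 4.59, with ranges that overlapped in all 4 groups. Gdf10 (45.3 ± 4.22), Hopx (37.5 ± 1.99) and Gfap (37.1 ± 2.89) made a middle class, and Gja1 (22.3 ± 3.23), Gjb6 (20.2 ± 2.92) and Aldh1l1 (15.1 ± 0.709) were lowest. The order differed between the groups within the middle and the lowest class. In the WT/WT mice of 12 months Gjb6 (24.8 ± 2.91) lay above Gja1 (19.3 ± 1.69) in all 5 mice, while the mean of Gja1 was the higher one in the other 3 groups. In the 304Q/304Q mice of 12 months Gfap stood at 47.4 ± 5.93, above Hopx at 34.1 ± 2.16 and Gdf10 at 31.2 ± 1.03 in all 5 mice. In the WT/WT mice of 12 months Gdf10 stood at 49.2 ± 2.71, above Gfap at 41.7 ± 4.98 in all 5 mice although the ranges overlapped.

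**Figure D1:**
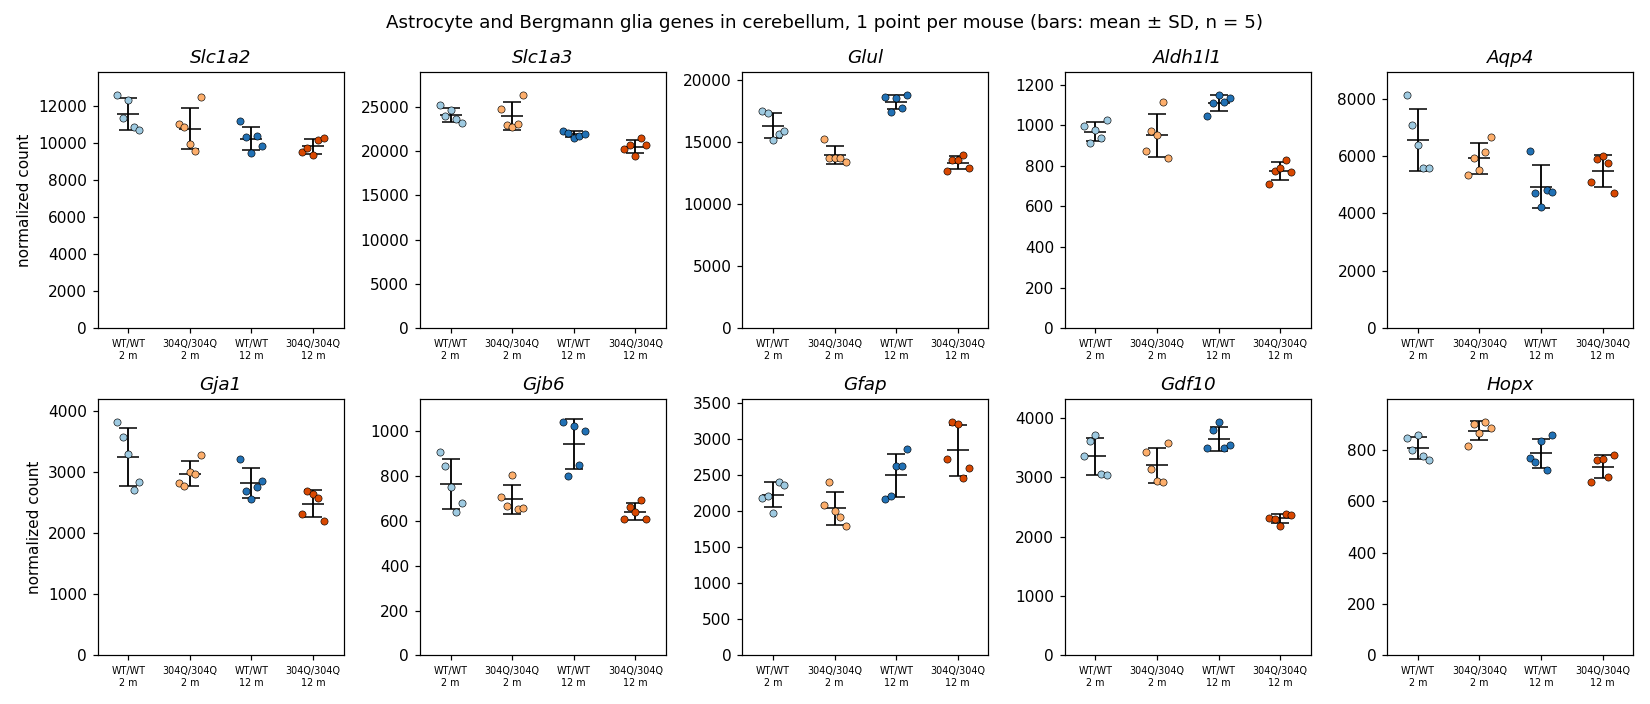
Normalized counts (vertical axes, each starting at 0) of the 10 genes in the 4 groups, 1 point per mouse, with bars for the mean ± SD (n = 5). At 12 months the 304Q/304Q points of Glul, Aldh1l1, Gjb6 and Gdf10 lie under all WT/WT points, those of the other 6 genes overlap.

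At 12 months, 4 of the 10 genes were lower in 304Q/304Q mice than in WT/WT littermates: Gdf10, Glul, Aldh1l1 and Gjb6. Each difference was tested with the quasi-likelihood F-test of edgeR and adjusted by Benjamini and Hochberg's method over the 12153 genes, hereafter edgeR's test, and an adjusted p of at most 0.05 was called. Of all genes tested, 12.5% were called at this age, 7.3% as lower. In the same 4 genes the 5 mice of each genotype did not overlap, which held for 8.94% of all genes. The median log2 fold change was −0.14 over the 10 genes and −0.0039 over all genes tested, and 8 of the 10 were negative. In bulk RNA such a value cannot tell fewer cells of a type from less RNA per cell.

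Glutamine synthetase (Glul) makes glutamine from the glutamate that glia take up. The 5 WT/WT mice of 12 months had 18617, 17441, 18501, 17715 and 18759.8 normalized counts of Glul. The 5 304Q/304Q mice had 12658, 13567, 13531, 13938 and 12871. All 5 knock-in mice lay under the lowest WT/WT mouse, and Glul fell by 26.9%, from 18207 ± 589 to 13313 ± 531 (SD, n = 5). The log2 fold change was −0.45 (SE 0.0458, 95% interval −0.55 to −0.36, adjusted p = 2.63e-07 by edgeR's test).

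Aldh1l1, the folate enzyme by which astrocytes are often labelled, had 1047, 1109, 1148, 1115 and 1132 normalized counts in the WT/WT mice of 12 months. In the 304Q/304Q mice the values were 709, 774, 791, 826 and 769. The knock-in group was low as a whole, with no mouse within the WT/WT range. Aldh1l1 fell by 30.3%, from 1110.4 ± 38.6 to 774 ± 42.7 (SD, n = 5), for a log2 fold change of −0.52 (SE 0.0668, 95% interval −0.66 to −0.38, adjusted p = 7.79e-06 by edgeR's test).

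The connexins Gja1 (connexin 43) and Gjb6 (connexin 30) form the gap junctions between astrocytes, and of these Gjb6 passed edgeR's test at 12 months. Normalized counts of Gjb6 were 1040.2, 799.8, 1024, 848 and 1003 for WT/WT and 607, 662, 641, 694 and 607 for 304Q/304Q mice. The WT/WT mice fell into higher and lower values, replicates 2 and 4 being the low ones, and all 5 knock-in mice were lower still. Gjb6 fell by 31.8%, from 943 ± 111 to 643 ± 37.3 (SD, n = 5), for a log2 fold change of −0.55 (SE 0.0928, 95% interval −0.74 to −0.36, adjusted p = 0.000214 by edgeR's test). Gja1 stood at 2813 ± 246 for WT/WT and 2479 ± 217 for 304Q/304Q mice (SD, n = 5). Its log2 fold change was −0.18 (95% interval −0.35 to −0.01, adjusted p = 0.158 by edgeR's test), with all 5 knock-in mice under the WT/WT mean.

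Gdf10, a secreted factor of the bone morphogenetic protein family made by Bergmann glia, had the most negative log2 fold change of the 10 at 12 months. The WT/WT mice had 3485, 3792, 3923, 3486 and 3542 normalized counts and the 304Q/304Q mice 2316, 2302, 2186, 2374 and 2369.9. The knock-in values lay close together, well under every WT/WT mouse. Gdf10 fell by 36.6%, from 3645 ± 200.5 to 2309 ± 76.4 (SD, n = 5), for a log2 fold change of −0.66 (SE 0.0648, 95% interval −0.79 to −0.52, adjusted p = 2.17e-07 by edgeR's test). Hopx, a homeodomain protein without DNA binding that marks the same glia, did not pass. It had 787 ± 57.4 normalized counts for WT/WT and 735 ± 46.4 for 304Q/304Q mice (SD, n = 5), for a log2 fold change of −0.10 (95% interval −0.23 to 0.03, adjusted p = 0.331 by edgeR's test).

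Gfap, the intermediate filament of reactive astrocytes, had 2166, 2213, 2621, 2625 and 2863 normalized counts in the WT/WT mice of 12 months. In the 304Q/304Q mice the counts were 2718, 3229, 3211, 2462 and 2597. The groups overlapped, and 4 of the 5 knock-in mice lay above the WT/WT mean. The means were 2498 ± 298 and 2843 ± 356 (SD, n = 5). The log2 fold change of 0.19 (95% interval 0.00 to 0.37) did not pass edgeR's test after adjustment (adjusted p = 0.176).

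The glutamate transporters Slc1a2 (GLT-1) and Slc1a3 (GLAST, the main one of Bergmann glia) and the water channel Aqp4 did not pass the test at 12 months either. Slc1a3 stood at 21905 ± 324 and 20521 ± 738 normalized counts, WT/WT before 304Q/304Q (SD, n = 5), with a log2 fold change of −0.09 (95% interval −0.18 to −0.01, adjusted p = 0.131 by edgeR's test). For Slc1a2 the log2 fold change was −0.06 (95% interval −0.19 to 0.07, adjusted p = 0.565 by edgeR's test). For Aqp4 it was 0.15 (95% interval −0.06 to 0.36, adjusted p = 0.346 by edgeR's test), with 4 of 5 knock-in mice above the WT/WT mean. Over the alternatives other than leaving out 1 library, the value of Aqp4 ranged from 0.0074, with surrogate variables in edgeR, to 0.267. The intervals of all 3 genes leave out a fall as large as the −0.45 of Glul.

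The 4 genes that fell were called in every alternative that kept the threshold, also without the 6 choroid plexus libraries and with any 1 library left out. Their adjusted p by edgeR's or DESeq2's test reached at most 0.0249 for Gjb6, 0.00752 for Aldh1l1, 0.00194 for Glul and 0.000743 for Gdf10 over the alternatives other than leaving out 1 library. With a log2 fold change of at least 0.5 required as well, Glul (−0.45) lost its call and the other 3 kept theirs. With each library's trends with GC content and gene length removed together, 8 of the 10 were called by edgeR's test: the same 4, Gja1 (−0.30), Slc1a3 (−0.14), Slc1a2 (−0.12) and, as higher, Gfap (0.25). Of all 12153 genes tested, 1670 were called in that alternative, against 1523 in the main test. The adjusted p of Gfap was 0.0234 in that alternative and ranged from 0.0234 to 0.757 over the alternatives other than leaving out 1 library, and that of Gja1 ranged from 0.000112 to 0.676. Over the same alternatives the log2 fold change ranged from 0.07 to 0.25 for Gfap and from −0.30 to −0.10 for Gja1. Gja1 was called with surrogate variables too, in edgeR (−0.26, adjusted p = 0.00156) and in DESeq2 (−0.25, adjusted p = 0.000112).

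Markers of other cells moved in the same comparison, in which 12.5% of all genes tested were called. The 8 markers of Purkinje cells, whose synapses the Bergmann glia ensheath, summed to 8675, 8643, 8422, 8042 and 8292 CPM for WT/WT and 6723, 6459, 6306, 6758 and 6666 CPM for 304Q/304Q mice of 12 months. Of these 8 genes 7 fell, Itpr1 having the most CPM and Pvalb the most per length. The 8 markers of myelinating oligodendrocytes summed to 5488, 5221, 5962, 5575 and 5777 CPM for WT/WT and 3881, 4743, 4613, 3429 and 3635 CPM for 304Q/304Q mice, and 4 of 8 fell, with Mbp the most abundant. In both lists every knock-in sum lay under every WT/WT sum. The 6 markers of inhibitory interneurons did the same, with 1185, 1120.3, 1136, 1167 and 1166 CPM against 1002, 1021, 1019, 1037 and 991 CPM, 3 of 6 genes lower, and Gad1 the most abundant.

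Microglial markers summed to 123, 129, 151, 150.2 and 154 CPM for WT/WT and 162, 168, 171, 156 and 134 CPM for 304Q/304Q mice of 12 months, with ranges that overlapped, 1 of 7 tested genes higher (C1qa, also the most abundant per length) and 0 lower. The markers of granule cells (0 of 7 called, Cbln3 the most abundant), oligodendrocyte precursors (0 of 5, Ptprz1), endothelial cells and pericytes (0 of 8, Rgs5), meninges (0 of 5, Dcn) and choroid plexus (0 of 3, Ttr) had none called at 12 months by edgeR's test. Their sums at 12 months, WT/WT before 304Q/304Q, were 5191 ± 164 and 5121 ± 193 CPM for granule cells, 405 ± 33.9 and 425 ± 24.2 for precursors, 315 ± 16.0 and 317 ± 22.8 for vessels, and 87.7 ± 12.9 and 84.6 ± 8.17 for meninges (SD, n = 5). Ependymal markers summed to 25.0 ± 4.37 and 15.7 ± 5.73 CPM (SD, n = 5), with Foxj1, the most abundant, lower and 1 of 2 called. Th, among 2 tested markers of brainstem and midbrain, and Pcp2, among the 7 of cerebellum, were also lower. In none of these lists but that of brainstem was a marker at a median count of 0. The part of these other cells in the fall of the 4 glial genes was not tested.

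At 2 months none of the 10 genes was called by edgeR's test, against 0.0494% of all genes tested (6 genes). At an unadjusted p under 0.05 there was 1 of the 10, Glul, and 674 of all genes, and DESeq2 called 1 of the 10, again Glul, and 22 of all genes. Groups that did not overlap were seen in 0 of the 10 and in 1.05% of all genes. The median log2 fold change was −0.11 over the 10 genes and −0.0016 over all genes, with 9 of 10 negative.

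Glul at 2 months had 17458, 17346, 15177, 15656 and 15900.1 normalized counts for WT/WT and 15243, 13700.3, 13733, 13705 and 13372 for 304Q/304Q mice. All 5 knock-in mice lay under the WT/WT mean, and replicate 1, the deepest library, was the highest of them and the 1 that reached into the WT/WT range. The means were 16307 ± 1033 and 13951 ± 738 (SD, n = 5). The log2 fold change was −0.23 (SE 0.0458, 95% interval −0.32 to −0.13), which missed the threshold of edgeR's test (adjusted p = 0.0665). Without replicate 1 of the knock-in mice it was called (−0.26, adjusted p = 0.0233 by edgeR's test), as it was without replicate 3 of the WT/WT mice (−0.25, adjusted p = 0.0323). Over the alternatives other than leaving out 1 library, the adjusted p of Glul ranged from 0.00154 to 0.41, and 4 of these called it.

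The other 9 genes had log2 fold changes between −0.15 (Aqp4) and 0.11 (Hopx) at 2 months. Hopx was the exception in sign, with 816, 900.3, 866, 907 and 887 normalized counts in 304Q/304Q and 846, 799, 859.5, 776 and 762 in WT/WT mice. All 5 knock-in mice lay above the WT/WT mean, and the groups overlapped (adjusted p = 0.884 by edgeR's test). Gdf10 (−0.07, 95% interval −0.20 to 0.07) and Aldh1l1 (−0.03, 95% interval −0.17 to 0.11) had intervals at 2 months that leave out the size of their fall at 12 months.

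**Figure D2:**
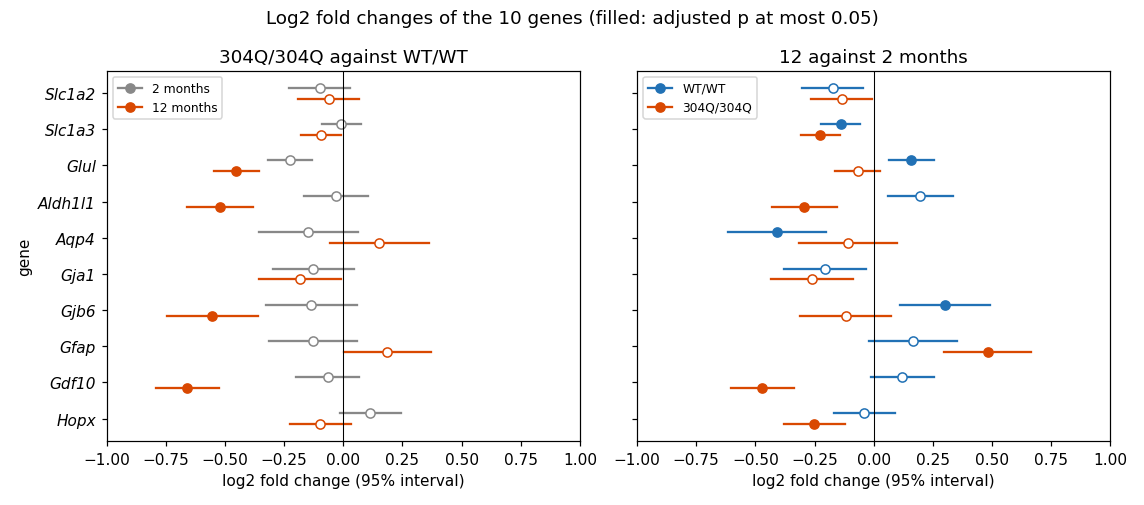
Log2 fold changes (horizontal axes) of the 10 genes with 95% intervals, for 304Q/304Q against WT/WT mice at each age and for 12 against 2 months in each genotype. Filled points have an adjusted p of at most 0.05 by edgeR's test: 0 at 2 months, 4 at 12 months, 4 with age in WT/WT mice, 5 with age in 304Q/304Q mice.

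The genotype difference itself differed between the ages in Gdf10 and Aldh1l1. This interaction was called in 2 of the 10 genes and in 1.95% of all genes tested. For Gdf10 it was −0.59 on the log2 scale (SE 0.0912, 95% interval −0.78 to −0.40, adjusted p = 0.00066 by edgeR's test). For Aldh1l1 it was −0.49 (SE 0.0940, 95% interval −0.68 to −0.30, adjusted p = 0.00483 by edgeR's test). The differences of Glul (−0.23, adjusted p = 0.0696), Gjb6 (−0.42, adjusted p = 0.105) and Gfap (0.32, adjusted p = 0.22) did not pass edgeR's test, and neither did the other 5 (adjusted p from 0.243 upward). Over the 10 genes the median was −0.15, and over all genes −0.010.

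Some alternatives changed this count. Of all genes tested, 237 passed in the main test, 315 with surrogate variables in edgeR and 418 with them in DESeq2. The number was 395 with DESeq2 alone and 269 with the GC and length trends removed. With surrogate variables in the model 4 of the 10 passed (Gdf10, Aldh1l1, Gjb6 and Glul). Glul passed with DESeq2 too (adjusted p = 0.0461, range 0.0144 to 0.244 over the alternatives other than leaving out 1 library), which made 3 of the 10, and without replicate 1 (0.0483) of the WT/WT mice of 2 months or replicate 5 (0.0445) of the 304Q/304Q mice of 2 months, and Gjb6 without replicate 1 (0.0483) of the WT/WT mice of 2 months (adjusted p by edgeR's test). With the GC and length trends removed Gfap (0.41, adjusted p = 0.0365 by edgeR's test, range 0.0365 to 0.519) and Slc1a3 (−0.16, adjusted p = 0.0477, range 0.0477 to 0.743) passed beside Gdf10 and Aldh1l1. Without the 6 libraries with choroid plexus transcripts Aldh1l1 kept its value (−0.49) but not its call (adjusted p = 0.0856 by edgeR's test, range 3.27e-05 to 0.0856 over the alternatives other than leaving out 1 library).

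With age, the WT/WT and the 304Q/304Q mice were compared each with their own genotype at 2 months, so these comparisons share mice with those of genotype. Between the ages in WT/WT mice, 4 of the 10 passed and 11.5% of all genes tested. Aqp4 and Slc1a3 fell, and Glul and Gjb6 rose. The median was 0.04 over the 10 genes, 5 of them negative, and 0.0017 over all genes.

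Aqp4, the water channel of astrocyte endfeet, had 8118, 7064, 6383, 5596 and 5592 normalized counts in the WT/WT mice of 2 months and 6180.0, 4696, 4220.4, 4822 and 4757 in those of 12 months. The values spread widely at 2 months, and replicate 1 of 12 months lay among them. Aqp4 fell by 24.7%, from 6550.5 ± 1070.0 to 4935 ± 735 (SD, n = 5), for a log2 fold change of −0.41 (95% interval −0.62 to −0.20, adjusted p = 0.0116 by edgeR's test). Slc1a3 had 25185, 23948, 24703, 23589 and 23184 normalized counts at 2 and 22337, 22012, 21465, 21746 and 21964 at 12 months, with no overlap, and fell by 9.19% (adjusted p = 0.0275 by edgeR's test). Glul rose by 11.6% (log2 0.16, adjusted p = 0.0267 by edgeR's test), from the values given above for 2 months to those for 12 months. Gjb6 rose by 0.30 (adjusted p = 0.0362 by edgeR's test), from 909, 846, 752, 642 and 682 normalized counts at 2 months. Aldh1l1 was higher in all 5 WT/WT mice of 12 months than in any of 2 months, with a log2 fold change of 0.20 that missed the threshold (adjusted p = 0.054 by edgeR's test).

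Of these 4 calls, that of Aqp4 held in every alternative that left the threshold as it was (adjusted p 0.00161 to 0.044 by edgeR's or DESeq2's test), and 1 gene, Aqp4, remained with the GC and length trends removed and without the 6 choroid plexus libraries. The size of its fold change depended on the alternative. It was −0.25 with the trends removed and −0.22 with surrogate variables, against −0.41. The fold change of Slc1a3 (−0.14) was −0.04 with the trends removed and −0.09 with surrogate variables. Aqp4 had the lowest GC content of the 10 genes, and replicate 1 of the WT/WT mice of 12 months, its highest mouse of that group, also stood apart in the GC trend (−0.12, against 0.17 to 0.27 in the other 4). The part of base composition in the change of Aqp4 was not tested. Leaving out single libraries changed the others, with adjusted p by edgeR's test in brackets. Slc1a3 lost its call without replicate 1 (0.0767), 2 (0.0529), 3 (0.0656) of the WT/WT mice of 2 months or replicate 3 (0.0736), 4 (0.0571), 5 (0.0559) of the WT/WT mice of 12 months. Glul lost it without replicate 3 (0.08) of the WT/WT mice of 2 months or replicate 3 (0.0671), 5 (0.0711) of the WT/WT mice of 12 months, and Gjb6 without replicate 3 (0.074), 4 (0.0756), 5 (0.0737) of the WT/WT mice of 2 months or replicate 1 (0.052), 3 (0.107), 5 (0.0911) of the WT/WT mice of 12 months. Genes not called above were called as well: Slc1a2 without replicate 4 (0.0471), 5 (0.0418) of the WT/WT mice of 2 months or replicate 5 (0.039) of the 304Q/304Q mice of 2 months or replicate 1 (0.0234) of the WT/WT mice of 12 months, Aldh1l1 without replicate 5 (0.0421) of the WT/WT mice of 2 months or replicate 4 (0.0296), 5 (0.0386) of the 304Q/304Q mice of 2 months or replicate 1 (0.0291) of the WT/WT mice of 12 months, and Gja1 without replicate 4 (0.0306) of the WT/WT mice of 2 months or replicate 1 (0.0318) of the WT/WT mice of 12 months. Over the 10 alternatives other than leaving out 1 library, Slc1a3 was called in 5, Glul in 6, Gjb6 in 7 and Aldh1l1 in 2, with DESeq2 alone (0.0416) and with DESeq2 and surrogate variables (0.0405).

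In 304Q/304Q mice 5 of the 10 genes were called with age and 7.26% of all genes tested. Gfap rose, and Gdf10, Slc1a3, Aldh1l1 and Hopx fell. The median was −0.18 over the 10 genes, 9 of them negative, and −0.0039 over all genes. In each of the 5 genes the mice of the 2 ages did not overlap. The share of all genes without overlap was not counted for the age comparisons, so this separation has no background to be read against.

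Gfap in the 304Q/304Q mice of 2 months had 2086, 2397, 1995, 1922 and 1788 normalized counts, against the 2462 to 3229 of 12 months. It rose by 39.5%, from 2037 ± 229 to 2843 ± 356 (SD, n = 5), for a log2 fold change of 0.48 (SE 0.0892, 95% interval 0.30 to 0.66, adjusted p = 0.000875 by edgeR's test). In WT/WT mice the values were 2182, 2215, 1967, 2405 and 2363 at 2 months, and the log2 fold change with age was 0.17 (95% interval −0.02 to 0.35, adjusted p = 0.232 by edgeR's test). In these mice it ranged from 0.070 to 0.235 over the alternatives other than leaving out 1 library. The difference between the genotypes in the change of Gfap with age is the interaction given above, which passed only with the GC and length trends removed.

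Gdf10 fell with age in the knock-in mice by 27.9%, from 3429, 3147, 2935, 2917 and 3576 normalized counts at 2 months (log2 −0.47, SE 0.0647, adjusted p = 3.05e-05 by edgeR's test). Its log2 fold change with age in WT/WT mice was 0.12 (adjusted p = 0.225 by edgeR's test), from 3352, 3616, 3711, 3053 and 3032. Aldh1l1 had 875, 970.0, 952, 1113 and 838 normalized counts in the knock-in mice of 2 months and fell by 18.4% (log2 −0.29, adjusted p = 0.00605 by edgeR's test), whereas the WT/WT mice started at 996, 911, 977, 935 and 1024. So Gdf10 and Aldh1l1 moved apart between the genotypes with age, which the interaction test called.

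Slc1a3 fell in the knock-in mice by 14.4%, from 24775, 22964, 22764, 23095 and 26333 to 20249, 20649, 19474, 21491 and 20744 normalized counts (log2 −0.23, adjusted p = 0.000596 by edgeR's test). It was the only member of the 10 called with age in both genotypes, each time as lower. Hopx fell by 15.9% to 676, 761, 764, 694 and 779.9 (log2 −0.25, adjusted p = 0.0122 by edgeR's test). Gja1 had no overlap between the ages either but missed the threshold (log2 −0.26, adjusted p = 0.0583 by edgeR's test), which it passed without replicate 1 (0.0348), 4 (0.0358), 5 (0.0479) of the WT/WT mice of 2 months or replicate 1 (0.0403) of the WT/WT mice of 12 months. Among the alternatives other than leaving out 1 library, 6 of 10 called it, with surrogate variables in either tool, with DESeq2, without a filter, with the GC and length trends removed and with only the groups compared (adjusted p 6.07e-08 to 0.241 over the 10). Glul and Gjb6, called as higher with age in WT/WT mice, were not called in the knock-in mice, where their log2 fold changes were −0.07 and −0.12. The difference between the genotypes in this change, the interaction given above, did not pass edgeR's test for either gene (adjusted p = 0.0696 and 0.105). Without the 6 choroid plexus libraries, Hopx (−0.24, adjusted p = 0.131, range 0.00372 to 0.131) and Aldh1l1 (−0.27, adjusted p = 0.126, range 3.30e-05 to 0.126) lost their calls in edgeR's test, and Gfap, Gdf10 and Slc1a3 kept theirs.

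Of all genes tested, 11.5% were called with age in WT/WT mice and 7.26% in 304Q/304Q mice. Microglial markers moved with age in both genotypes, 5 of 7 tested being higher in each. Their sums were 96.5, 93.7, 95.0, 104 and 107 CPM for WT/WT and 94.7, 92.3, 94.7, 101 and 98.2 CPM for 304Q/304Q mice of 2 months, under all those given for 12 months. Granule cell markers were lower with age (5 of 7 in WT/WT, 3 of 7 in 304Q/304Q mice), with sums of 6209 ± 184 and 5641 ± 289 CPM at 2 months (SD, n = 5). Purkinje cell markers had 3 of 8 higher with age in WT/WT mice, and 6 of 8 lower in the knock-in mice, from 9060.2, 8439.9, 8294, 8358 and 8206 CPM and 7733, 8401, 7803, 7898 and 8363 CPM at 2 months. Oligodendrocyte markers had 3 of 8 lower with age in WT/WT mice, against 6 of 8 in the knock-in mice, from 5935, 6515, 5666, 6110.4 and 5777 CPM and 5331, 5557, 5049, 4956 and 4909 CPM. Among the other lists, precursor markers had 2 of 5 lower in WT/WT mice and 1 in the knock-in mice, interneuron markers 1 higher and 1 lower of 6 in WT/WT mice and 2 lower in the knock-in mice, and Th, Pcp2 and 2 of 3 choroid plexus markers were higher and Gabra6 lower with age in WT/WT mice. Vessel, ependymal and meningeal markers had 0 called with age by edgeR's test. The interaction was called in 5 of 8 Purkinje cell markers, 1 of 8 of oligodendrocytes, 1 of 6 of interneurons, Th and Pcp2, all negative, beside 1.95% of all genes tested. At 2 months, where 0.0494% of all genes were called, 1 of the 8 oligodendrocyte markers, Mal, was already lower in the knock-in mice. No other marker was called at that age by edgeR's test. Their part in the changes of the 10 genes with age was not tested.

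Gfap and the Bergmann markers were also set against the transport and enzyme genes of the same mouse. The log2 CPM of Gfap minus the mean of the 7 transport and enzyme genes was −1.26, −1.06, −0.83, −0.84 and −0.76 in the WT/WT mice of 12 months and −0.50, −0.37, −0.36, −0.80 and −0.58 in the 304Q/304Q mice. Replicate 4 of the knock-in mice lay within the WT/WT range and the other 4 above it. The means were −0.95 ± 0.206 and −0.52 ± 0.179 at 12 months and −1.15 ± 0.205 and −1.17 ± 0.183 at 2 months, WT/WT before 304Q/304Q (SD, n = 5). So the mean was higher by 0.43 in the knock-in mice at 12 months and lower by less than the spread at 2 months. These ratios are descriptions without a test.

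The mean of Gdf10 and Hopx minus the same 7 genes was −1.50 ± 0.115 for WT/WT and −1.64 ± 0.0815 for 304Q/304Q mice of 12 months, and −1.58 ± 0.0892 and −1.45 ± 0.0444 at 2 months (SD, n = 5). Its parts differed. Gdf10 alone went from −0.40 ± 0.132 for WT/WT to −0.81 ± 0.0869 in 304Q/304Q mice of 12 months, and Hopx alone from −2.61 ± 0.121 to −2.46 ± 0.112 (SD, n = 5). At 2 months Hopx alone stood at −2.60 ± 0.0833 for WT/WT and −2.38 ± 0.0642 for 304Q/304Q mice (SD, n = 5), with no overlap. At 12 months Hopx itself was not called (−0.10), and 3 of the 7 genes it is set against fell. Against the median of the 7 genes, which was Aqp4 in all 20 mice, the differences between the genotypes at 12 months were 0.028 for Gfap and −0.53 for the Bergmann markers. So the choice of mean or median changed the size of both, but not the sign.

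Some ratios between members did not overlap between the genotypes at 12 months. The log2 ratio of Gfap to Gdf10 lay between −0.78 and −0.31 in WT/WT and between 0.05 and 0.55 in 304Q/304Q mice. The log2 ratio of Glul to Slc1a3, enzyme to transporter, was −0.27 ± 0.0498 for WT/WT and −0.62 ± 0.0654 for 304Q/304Q mice (SD, n = 5), with no overlap. That of Gjb6 to Gja1, both connexins, was −1.58 ± 0.172 and −1.94 ± 0.0831 (SD, n = 5), also with no overlap. Gdf10 to Hopx, both Bergmann markers, was 2.21 ± 0.108 and 1.65 ± 0.116 (SD, n = 5). The log2 ratio of Gfap to Slc1a3 overlapped between the genotypes at 12 months, at −3.14 ± 0.188 for WT/WT and −2.86 ± 0.219 for 304Q/304Q mice (SD, n = 5), and that of Gfap to Glul stood at −2.87 ± 0.163 and −2.23 ± 0.180 (SD, n = 5) with no overlap. At 2 months the ranges of all 6 ratios overlapped between the genotypes, that of Glul to Slc1a3 only at its edge, with −0.57 ± 0.0886 for WT/WT and −0.78 ± 0.112 for 304Q/304Q mice (SD, n = 5).

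**Figure D3:**
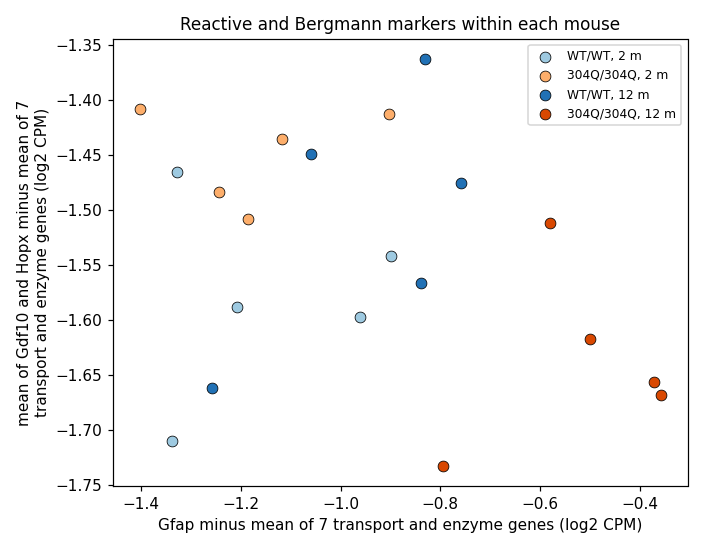
Log2 CPM of Gfap (horizontal) and of the mean of Gdf10 and Hopx (vertical), each minus the mean of the 7 transport and enzyme genes, 1 point per mouse and 1 colour per group. The 304Q/304Q mice of 12 months lie farthest to the right, at means of −0.52 and −1.64, and 1 of them lies within the horizontal range of the WT/WT mice.

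Between mice of the same group the 10 genes varied together only in part. After subtraction of the group means, 33 of the 45 pairs of genes had a positive correlation over the 20 mice, and the median Pearson's r was 0.163. After adjustment over the 45 pairs, 2 pairs passed by both r and rho in a permutation test with mice permuted within groups, and Glul with Gjb6 passed by rho alone. Slc1a2 and Slc1a3, the glutamate transporters, had r = 0.849 (permutation p = 1e-05, the smallest these permutations can give, adjusted p = 0.00045) and Spearman's rho = 0.823 (permutation p = 0.0001, adjusted p = 0.00225). Aqp4 and Gja1, both of endfeet and both low in GC, had r = 0.928 (permutation p = 2e-05, adjusted p = 0.00045) and rho = 0.911 (permutation p = 3e-05, adjusted p = 0.00135). Without the 2 mice farthest from the median of the gene named ahead, r of these 2 pairs was 0.776 and 0.903. With the surrogate variables removed it was 0.720 and 0.567, the median over the 45 pairs was 0.0164, and 18 pairs changed sign. Glul and Gjb6 had rho = 0.735 (permutation p = 0.00186, adjusted p = 0.0279) and r = 0.680 (permutation p = 0.0056, adjusted p = 0.084), with r = 0.698 without the 2 farthest mice.

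The most negative of the 45 pairs was Gfap with Slc1a3. Its r was −0.561 (permutation p = 0.0133, adjusted p = 0.0998), with rho = −0.602 (permutation p = 0.00833, adjusted p = 0.075), and r = −0.443 without the 2 farthest mice. It did not pass the adjustment. The Bergmann markers Gdf10 and Hopx had r = 0.169 (permutation p = 0.464, adjusted p = 0.757) and rho = 0.180 (permutation p = 0.443, adjusted p = 0.667), with r = 0.0466 without the 2 farthest mice.

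Over all 20 libraries, groups included, the tested genes most like Gfap in log2 CPM were Cx3cr1 (a chemokine receptor of microglia, Pearson's r = 0.840, Spearman's rho = 0.788), Eef1a1 (0.835, 0.794) and Rtl8c (0.832, 0.779). Those most like Gdf10 were Nr1d1 (a repressor of the circadian clock, 0.944, 0.850), Timp4 (a metalloproteinase inhibitor, 0.941, 0.919) and Auts2 (0.937, 0.890). Those most like Slc1a3 were Atp2b4 (a plasma membrane calcium pump, 0.946, 0.950), Sept3 (a septin, 0.918, 0.937) and Sv2c (a synaptic vesicle protein, 0.900, 0.931). Such values follow the group differences as well as the mice and are descriptions. Since the 9 genes were chosen by these values, the tests of them given next are no separate evidence. None of the 9 genes lies on the chromosome of the gene it resembles, except Sept3, on chromosome 15 as Slc1a3 is. At 12 months Nr1d1 was lower in 304Q/304Q mice by a log2 fold change of −0.60, Timp4 by −0.36 and Auts2 by −0.30, and with age in them Cx3cr1 was higher by 0.62 (adjusted p = 7.90e-08, 1.24e-05, 0.000167 and 0.0017 by edgeR's test). Of the genes like Slc1a3, Sv2c was lower at 12 months (−0.36, adjusted p = 0.001 by edgeR's test), and with age in 304Q/304Q mice Sv2c (−0.60), Atp2b4 (−0.62) and Sept3 (−0.18) were lower, as they were with age in WT/WT mice (−0.30, −0.47 and −0.15).

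Other genes of the same roles were read from lists, none of which had a called gene between the genotypes at 2 months by edgeR's test. Each list is given by its counts and median at 12 months, 304Q/304Q against WT/WT, beside the 12.5% of all genes called and the median of −0.0039. At 2 months the medians of the 11 lists lay between −0.085 (pan-reactive genes) and 0.039 (A1-type genes).

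Of 8 tested genes for handling glutamate, glutamine, glycine and GABA, 1 fell and 0 rose, with a median of −0.11. Slc6a9, the glial glycine transporter, went from 925 ± 62.4 to 709 ± 53.8 normalized counts (SD, n = 5), for a log2 fold change of −0.38 (SE 0.0652, adjusted p = 0.000248 by edgeR's test). It fell with age in 304Q/304Q mice too (log2 −0.45, adjusted p = 4.69e-05 by edgeR's test), and no gene of the list was called with age in WT/WT mice.

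Of 11 genes for potassium, water and the endfoot complex, 4 fell and 0 rose at 12 months, with a median of −0.063 and Atp1b2 the most abundant per length. Kcnj10, the potassium channel Kir4.1, went from 5360.1 ± 207 to 4600.5 ± 135 normalized counts (SD, n = 5, log2 −0.22, adjusted p = 0.00411 by edgeR's test). Hepacam, the adhesion protein GlialCAM, had a log2 fold change of −0.25 (adjusted p = 0.00205 by edgeR's test). So genes of this list fell while Aqp4 was not called. With age 0 of 11 were called in WT/WT mice, while 5 fell in 304Q/304Q mice, among them Kcnj10 (−0.29), Hepacam (−0.26) and Mlc1 (−0.21), and the interaction was called for Hepacam (−0.31, adjusted p = 0.0226 by edgeR's test). The 5 tested connexins and partners had 0 called in any comparison by edgeR's test, the median at 12 months was −0.28, and Gjb1, a connexin of oligodendrocytes, was the most abundant per length.

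Of 17 tested general astrocyte genes, 7 fell and 0 rose at 12 months, with a median of −0.25. Aldoc, the glycolytic enzyme aldolase C, which bands of Purkinje cells also make, was the most abundant per length and went from 34289.9 ± 1688 to 24276 ± 1354 normalized counts (SD, n = 5, log2 −0.50, adjusted p = 1.40e-08 by edgeR's test). Agt, angiotensinogen, went from 1492 ± 108 to 798 ± 70.0 (SD, n = 5, log2 −0.90, adjusted p = 1.95e-07 by edgeR's test). Itih3, a hyaluronan-binding protein, and Ntsr2, a neurotensin receptor, had log2 fold changes of −0.63 and −0.52 (adjusted p = 1.24e-05 and 1.88e-05 by edgeR's test). The groups did not overlap in these 4 genes. In all 4 the genotype difference was also more negative at 12 than at 2 months, with interactions of −0.42 for Aldoc, −0.85 for Agt, −0.53 for Ntsr2 and −0.48 for Itih3 (adjusted p = 0.000344, 0.000364, 0.00416 and 0.0316 by edgeR's test). With age in WT/WT mice 4 of 17 rose, Apoe (0.44), Clu (0.28), Itih3 (0.40) and Agt (0.32). In 304Q/304Q mice Apoe, the main lipid carrier of astrocytes, rose (0.27), and Aldoc (−0.29), Agt (−0.53), Ntsr2 (−0.39) and Slc7a10 (−0.38) fell.

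Of 8 genes for glycogen, lactate and serine, 1 fell at 12 months, with a median of −0.13 and Pygb the most abundant per length. This was Slc2a1, the glucose transporter GLUT1, which vessel cells also make (log2 −0.33, adjusted p = 0.0437 by edgeR's test). Acsl6 fell with age in WT/WT mice (log2 −0.20, adjusted p = 0.00754 by edgeR's test), and Psat1, of serine synthesis, had an interaction of −0.37 (adjusted p = 0.0452 by edgeR's test). No gene of the list was called with age in 304Q/304Q mice.

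The Bergmann glia genes beside Gdf10 and Hopx went both ways at 12 months, 4 of 10 tested falling and 1 rising, with a median of −0.060 and Sept4 the most abundant per length. Timp4 went from 2362 ± 96.0 to 1837 ± 82.6 normalized counts (SD, n = 5, log2 −0.36, adjusted p = 1.24e-05 by edgeR's test). Dao, the D-amino acid oxidase of cerebellar glia, went from 1349 ± 118 to 973 ± 72.1 (SD, n = 5, log2 −0.47, adjusted p = 0.000194 by edgeR's test). Sept4, a septin, had a log2 fold change of −0.19 with groups that overlapped (adjusted p = 0.042 by edgeR's test). Tnc, the matrix protein tenascin-C, was the gene that was higher, at 273 ± 55.1 for WT/WT and 435 ± 50.7 for 304Q/304Q mice (SD, n = 5, log2 0.67, adjusted p = 0.000915 by edgeR's test). Tnc fell with age in WT/WT mice (log2 −0.84), as did Fabp7 (−0.67), Gria4 (−0.23) and Ptprz1 (−0.29). In 304Q/304Q mice Timp4 (−0.25), Fabp7 (−0.57), Gria1 (−0.17) and Gria4 (−0.18) fell with age, and Timp4 had an interaction of −0.33 (adjusted p = 0.00844 by edgeR's test). Neurons also make Gria1 and Gria4, and oligodendrocyte precursors make Ptprz1.

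Bergmann glia receive Sonic hedgehog from Purkinje cells, and Gli1 is the usual readout of that signal. Of 7 tested genes of the pathway, 2 fell and 0 rose at 12 months, with a median of −0.30 and Ptch1 the most abundant per length. Gli1 went from 297 ± 12.4 to 222 ± 19.5 normalized counts (SD, n = 5, log2 −0.42, adjusted p = 0.00716 by edgeR's test), and Smo, the signal transducer, from 498 ± 31.4 to 402 ± 27.1 (SD, n = 5, log2 −0.31, adjusted p = 0.00907 by edgeR's test). With age Gli1 fell in 304Q/304Q mice (log2 −0.45, adjusted p = 0.00599 by edgeR's test), and 0 of 7 were called in WT/WT mice. The ligand Shh was under the count minimum.

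Of 10 tested transcription factors of astrocytes, 2 rose, 0 fell and 8 were not called at 12 months, with a median of 0.22. Nfib went from 1738 ± 136 to 2223 ± 154 normalized counts and Nfix, the most abundant per length, from 7816 ± 349.5 to 8899 ± 345 (SD, n = 5), log2 fold changes of 0.35 and 0.19 (adjusted p = 0.00555 and 0.00632 by edgeR's test). Both belong to the nuclear factor I family, which other cells of the cerebellum, granule cells among them, also make. With age Nfib (−0.48) and Nfia (−0.31) fell in WT/WT and Nfix (0.25) rose in 304Q/304Q mice.

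Over the lists of reactive astrocyte genes 3 of 21 tested were called between the genotypes at 12 months, beside the 12.5% of all genes. Of 10 tested pan-reactive genes beside Gfap, 1 rose and 1 fell at 12 months, with a median of −0.011 and the filament Vim the most abundant per length. Serpina3n, a secreted protease inhibitor, went from 59.0 ± 15.7 to 111 ± 24.9 normalized counts (SD, n = 5, log2 0.91, adjusted p = 0.00472 by edgeR's test). Hspb1, a small heat shock protein, went from 152 ± 69.0 to 69.8 ± 15.1 (SD, n = 5, log2 −1.12, adjusted p = 0.00741 by edgeR's test), with groups that overlapped. Of 7 tested A1-type genes 1 fell, Amigo2 (log2 −0.54, adjusted p = 0.000404 by edgeR's test), with a median of −0.21 and H2-D1 the most abundant per length. Of 4 tested A2-type genes 0 were called in any comparison by edgeR's test, with a median of −0.22 and S100a10 the most abundant. Serpina3n is part of a cluster of near-identical genes, so its counts are uncertain.

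With age, 11.5% of all genes were called in WT/WT mice, 7.26% in 304Q/304Q mice. In WT/WT mice 4 of 10 pan-reactive genes rose, C4b (1.63), Hspb1 (1.12), Cp (0.44) and Vim (0.33), and in 304Q/304Q mice 2 rose, C4b (2.05) and Serpina3n (1.09). C4b, a complement component, went from 127 ± 19.9 to 392 ± 86.9 normalized counts in WT/WT and from 118 ± 20.1 to 482 ± 95.3 in the 304Q/304Q mice (SD, n = 5), and it has a near-identical copy, so its counts are uncertain. Of the A1-type genes 4 of 7 rose in WT/WT mice, Serping1 (0.67), H2-D1 (0.36), Amigo2 (0.51) and H2-T23 (0.74), and 2 in 304Q/304Q mice, Serping1 (0.76) and H2-D1 (0.26). Microglia and vessel cells also make complement and class I genes. The age change of Amigo2 differed between the genotypes, with an interaction of −0.58 (adjusted p = 0.0227 by edgeR's test).

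Over these lists 25 genes were called between the genotypes at 12 months. Without the 6 libraries with choroid plexus transcripts, which left 2 WT/WT and 3 304Q/304Q mice of that age, 11 kept their call, among them Aldoc, Agt, Itih3, Ntsr2, Timp4, Dao, Tnc and Amigo2, and Serpina3n, Nfib, Nfix, Gli1 and Smo were among those that lost it. With the GC and length trends removed 20 kept it, and Lfng, Mt3, Sept4 and Slc2a1 were among those that did not. With surrogate variables in edgeR or DESeq2, Serpina3n and Lfng lost their call. With 1 library left out, 22 of the 25 kept their call each time, while Lfng, Sept4 and Slc2a1 each lost it in 10 of 20 cases (adjusted p up to 0.128, 0.122 and 0.121 by edgeR's test). None of the 25 changed sign in any alternative.

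Of the 8 interactions called in these lists, 3 were kept without the choroid plexus libraries (Amigo2, Hepacam, Ntsr2, Psat1 and Timp4 lost theirs) and 5 without a filter (Amigo2, Hepacam and Psat1 lost theirs). Amigo2 and Psat1 also lost theirs with surrogate variables in edgeR, and Hepacam with the GC and length trends removed. With 1 library left out, Psat1 kept its call in 8 of 20 cases, Itih3 in 11 and Hepacam in 18 (adjusted p up to 0.0959, 0.0710 and 0.0522 by edgeR's test). With age in WT/WT mice 13 of 19 calls were kept without the choroid plexus libraries, and Hspb1, Cp, H2-T23, Fabp7, Nfia and Acsl6 lost theirs. With surrogate variables in edgeR Acsl6, Cp, Nfia, Ptprz1 and Vim lost theirs, and with the GC and length trends removed Acsl6, Agt, Hspb1, Nfia and Ptprz1 did. Vim and Nfia kept theirs in 13 of 20 cases with 1 library left out and Agt in 17 (adjusted p up to 0.0863, 0.105 and 0.0621 by edgeR's test). With age in 304Q/304Q mice 14 of 21 were kept without the choroid plexus libraries, and Apoe, Atp1b2, Gli1, Gria1, Gria4, H2-D1 and Mlc1 lost theirs. With 1 library left out, Atp1b2 kept its call in 14 of 20 cases, Mlc1 in 15, Apoe in 16 and Gria4 in 18 (adjusted p up to 0.0879, 0.0707, 0.0736 and 0.0594 by edgeR's test).

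The sequences ahead of a RefSeq start of the 4 genes that fell at 12 months are shown beside that of Gfap, which was not called between the genotypes. RefSeq promoters of GRCm38.p6 were matched for 9 of the 10 genes (not Aqp4), as 250 bases ahead of the start, 5′ to 3′ on the strand of the gene. The starts used for Aldh1l1 and Gfap lie inside the gene positions given above, near the starts of their protein-coding transcripts in GENCODE, since noncoding transcripts extend both genes, while the windows of Gdf10, Glul and Gjb6 lie just outside. Capitals mark matches, on either strand, to the TATA box (TATAAA), the CCAAT box (CCAAT), the GC box (GGGCGG), the E-box (CACGTG), the nuclear factor I motif (TTGGC, any 5 bases, then GCCAA) or the STAT motif (TTCNNNGAA). Of 32851 such windows of mouse genes, 12.4%, 33.8%, 32.7%, 6.02%, 0.0365% and 7.02% hold them in this order, and the median GC content is 52.4%. The windows lie at chr14:33923337-33923586 (plus strand, 78.8% GC) for Gdf10, chr1:153899679-153899928 (plus, 64.8%) for Glul, chr6:90550543-90550792 (plus, 59.6%) for Aldh1l1, chr14:57133612-57133861 (minus, 56.8%) for Gjb6 and chr11:102897201-102897450 (minus, 55.6%) for Gfap.
Gdf10: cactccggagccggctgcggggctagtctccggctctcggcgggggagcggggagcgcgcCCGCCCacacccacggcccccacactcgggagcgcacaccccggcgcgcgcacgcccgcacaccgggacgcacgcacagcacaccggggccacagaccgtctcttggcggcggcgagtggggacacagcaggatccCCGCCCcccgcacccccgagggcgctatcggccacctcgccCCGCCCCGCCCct
Glul: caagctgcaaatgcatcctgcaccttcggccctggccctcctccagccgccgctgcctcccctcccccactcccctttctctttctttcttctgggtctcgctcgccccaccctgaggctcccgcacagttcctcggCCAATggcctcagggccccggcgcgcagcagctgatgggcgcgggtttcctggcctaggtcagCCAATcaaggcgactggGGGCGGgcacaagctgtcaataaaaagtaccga
Aldh1l1: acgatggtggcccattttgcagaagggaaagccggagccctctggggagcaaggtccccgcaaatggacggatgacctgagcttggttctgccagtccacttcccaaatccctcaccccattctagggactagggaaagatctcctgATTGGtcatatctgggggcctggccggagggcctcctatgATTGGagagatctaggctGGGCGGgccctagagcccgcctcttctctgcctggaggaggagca
Gjb6: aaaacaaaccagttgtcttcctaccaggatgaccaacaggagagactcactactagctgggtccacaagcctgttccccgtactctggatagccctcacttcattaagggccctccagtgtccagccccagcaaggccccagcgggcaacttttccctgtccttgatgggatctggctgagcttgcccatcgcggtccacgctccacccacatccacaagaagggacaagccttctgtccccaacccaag
Gfap: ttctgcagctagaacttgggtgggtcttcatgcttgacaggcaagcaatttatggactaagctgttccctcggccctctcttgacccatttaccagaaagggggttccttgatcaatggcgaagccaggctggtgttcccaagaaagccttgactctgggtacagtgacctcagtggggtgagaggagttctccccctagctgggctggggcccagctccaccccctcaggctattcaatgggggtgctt

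Gdf10 had 4 matches to the GC box, 2 of which overlapped each other. Glul and Aldh1l1 each had 2 matches to the CCAAT box and 1 to the GC box. Gjb6 and Gfap had none of the 6 motifs in this window, so no motif searched was common to the 4 genes. All 5 windows had more GC than the median window. A match is a description of letters, not of a site in use.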

How the data were processed

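Poly(A) RNA of 20 cerebella was sequenced with a stranded TruSeq kit. Per the labels, the authors used STAR (2.4.5b, while the paper gives another version) on GRCm38 and Rsubread, and deposited whole-number counts per gene without normalization.

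The 10 members and all gene lists were chosen with earlier results of these data known. Counts were scaled by TMM and fitted with edgeR 4.0.16 (R 4.3.3), 1 term per group, over all 20 libraries. The genes tested held 99.3% of all counts. Mice of a group varied by a common biological coefficient of variation of 0.113. Log2 CPM used a prior count of 2. Correlations used 100000 permutations (scipy 1.17.1, Python 3.11.15), 2-sided. The code was tested on simulated data. Symbols and positions came from GENCODE M21.

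The genes named are all members, each list's most abundant gene per length and its called genes (the 4 of smallest p if more), and the 3 genes most like Gfap, Gdf10 and Slc1a3. Marker lists are given as counts and sums. The values of some genes that this rule names are not reported. Genes named for an alternative and overlapping partners were picked with their values known.

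As alternatives served DESeq2's size factors, DESeq2 1.42.0, 3 surrogate variables (sva 3.50.0) in either tool, no filter, 50 counts or more in every library, a fit of the compared groups alone, the replicate number as block, GC and length trends removed (LOWESS), a log2 fold change of 0.5 or more, a prior count of 0.5, the median for the mean, each library left out in turn and, added after seeing the data, the choroid plexus libraries left out.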

Additional observations from a re-analysis of the deposited data

Results flagged for a closer look

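Among 100 groups of 5 libraries examined for a value far from the others, 5 held one, and chance gives about 1 in 20, which is 5. Glul in replicate 1 of the 304Q/304Q mice of 2 months had 15243 normalized counts, against 13372 to 13733 in the other 4. The Purkinje cell markers summed to 9060 CPM in replicate 1 of the WT/WT mice of 2 months, against 8206 to 8440. The choroid plexus markers summed to 1718 CPM in replicate 3 of the 304Q/304Q mice of 2 months, against 12.7 to 30.5. The cerebellum markers summed to 3381 CPM in replicate 3 of the WT/WT mice of 12 months, against 3471 to 3502. The level of GC-rich relative to GC-poor genes was −0.12 (log2) in replicate 1 of the same group, against 0.17 to 0.27.

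The genotype difference itself differed between 12 and 2 months for Aldh1l1, by −0.49 on the log2 scale, and for Gdf10, by −0.59, in the test of the interaction. For Hopx it differed by −0.21, with all 5 knock-in mice above the WT/WT mean at 2 months and all 5 under it at 12 months, and the interaction did not pass edgeR's test (adjusted p = 0.243).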

How the results depend on the processing

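Of the results for single members, 441 kept direction and side of the threshold over the alternatives other than leaving out 1 library, 25 passed where the value reported did not, 15 no longer passed and 9 changed sign. When 1 library was left out the counts were 958, 19, 15 and 8. Of members called, the count at 2 months (0) was 1, Glul, with DESeq2, with surrogate variables in edgeR or DESeq2 and with GC and length trends removed. Of all genes, 22, 46, 52 and 17 were called in these settings, in this order, against 6 in the main test. The count of members at 12 months (4) was 8 with the trends removed and 3 with a log2 fold change of at least 0.5, where Glul lost its call, and it was within 1.5 times elsewhere. Of all genes, 1670 were called with the trends removed and 375 with that fold change, against 1523 in the main test. With age in WT/WT mice (4) the count of members was 2 without a filter, 1 with the trends removed, 2 with only the groups compared, 0 with a log2 fold change of at least 0.5 and 1 without the choroid plexus libraries, an alternative chosen after seeing the data. Of all genes, 1231 of 29200 were called without a filter, and of the 12153 tested 949, 739, 314 and 1105 in the other settings, in this order, against 1398. With age in 304Q/304Q mice (5) the count of members was 0 with that fold change and 3 without those libraries. Of all genes 277 and 431 were called in these settings, against 882. The interaction (2) was called in 3 members with DESeq2 (Glul added), in 4 with surrogate variables in either tool, in 4 with the trends removed, in 1 with that fold change and in 1 without those libraries. Of all genes it was called in 114 with that fold change and in 94 without those libraries, against 237 in the main test.

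With the median over the transport and enzyme genes, the difference of 0.43 for Gfap at 12 months was 0.0282 and that of −0.13 for the Bergmann markers was −0.5348. With the GC and length trends removed they were 0.5264 and −0.0742. The log2 fold change of Slc1a3 at 2 months (−0.0081) was 0.0171 and 0.0195 with surrogate variables in edgeR and DESeq2, 0.0207 with the trends removed and 0.0101 without the choroid plexus libraries. The interaction of Slc1a2 (0.039) was −0.0202, −0.0150 and −0.0716 in the same first 3 settings. Without the choroid plexus libraries, Slc1a2 at 12 months was 0.0146 and the interaction of Gja1 was 0.0314. None of these single-gene values passed the test, except where stated, and the cause was not tested.

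Without 1 library at a time, the members called ranged from 0 to 1 at 2 months (1 without replicate 3 of WT/WT or 1 of 304Q/304Q mice of 2 months), from 1 to 6 with age in WT/WT mice (1, Aqp4, without replicate 3 of 2 months or 3 or 5 of 12 months) and from 2 to 4 for the interaction (4 without replicate 1 of WT/WT mice of 2 months), and stayed at 4 at 12 months. Values that changed sign ranged from −0.0390 to 0.0102 for Slc1a3 at 2 months, −0.0934 to 0.0156 for Aldh1l1 at 2 months, −0.000377 to 0.0944 for the interaction of Slc1a2 and −0.118 to 0.00249 for that of Gja1.

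The replicate numbers were not treated as pairs in the main test. Same-numbered mice of different groups had a median correlation of −0.0404 over 30 pairs, with 6 over 0.1. Differently numbered mice had a median of 0.00704 over 120 pairs, with 36 over 0.1. The highest correlation, 0.551, was of a same-numbered pair, and such values cannot show that no mice were paired. With the number as a block, 0, 4, 4, 5 and 2 members were called at 2 months, at 12 months, with age in each genotype (WT/WT ahead) and for the interaction, so the block changed no call of a member. Of the genes in lists, Sept4 at 12 months, Atp1b2 with age in 304Q/304Q mice and Psat1 in the interaction lost their call with the block. Depth limits little here, since the lowest count of a member was 513.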
